A study of Mus musculus with 6 samples.

Results

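Chemokines and their receptors were examined in leukaemia cells sorted from the spleens of mice that had received oil or tamoxifen. The members were the genes whose symbols begin with Ccl, Cxcl, Ccr, Cxcr or Ackr and a number, together with Cx3cl1, Cx3cr1, Xcl1, Xcr1 and Ccrl2. Described here are 62 of the 23608 genes in the count table, namely 39 ligands, 18 receptors and 5 atypical receptors. Only 10 members had enough counts for a test. Of these, edgeR called 2 higher in the libraries labelled tamoxifen, the fractalkine receptor Cx3cr1 and the inflammatory receptor Ccr1, and 0 lower. Of all 11614 tested genes, 1.75% were called higher and 0.267% lower (adjusted p under 0.05). Both calls were lost when any of 5 libraries was left out, and stayed with the remaining library left out. The share of all genes called in the fits that lost them is not given here. Most ligands were not seen: 26 of the 39 had no count in any library.

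All 6 libraries came from leukaemia cells of genotype Usp18+/f with UBCER-Cre, which expressed AE9a, a truncated AML1-ETO fusion protein, and GFP. The 3 oil libraries are labelled Usp18+/f, and the 3 tamoxifen libraries are labelled Usp18+/D, in which Cre is meant to have removed the floxed copy of Usp18. Both groups therefore carried the floxed allele, the Cre and the fusion protein, and differed by label in the injection and in that deletion, so an effect of tamoxifen or of active Cre cannot be told apart from an effect of the deletion here. The cells went into recipient mice, sick recipients were injected, and 3 days after the first dose their GFP+ Lin- c-Kit+ spleen cells were collected by sorting. By the study's methods, the leukaemia was made by retroviral transduction of fetal liver cells and passed to sub-lethally irradiated C57BL/6 mice, and the ubiquitin C promoter drives the Cre in all tissues that carry it. Those methods give a common age range of young adults and both sexes for all the mice of the study, while the ages of the single mice and the number of primary leukaemias behind the recipients were not given in the sources used here.

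Chemokines are small secreted proteins that steer the migration of leukocytes. They bind G protein-coupled receptors of the Gi class on the responding cell, and the signal runs through phosphoinositide 3-kinase, Rac and actin until arrestins and regulators of G protein signalling end it. Atypical receptors bind chemokines without that signal and scavenge, transport or present them. In the bone marrow, Cxcl12 from the stroma and its receptor Cxcr4 hold stem and progenitor cells, while inflammatory ligands of the Ccl group recruit monocytes through Ccr2 and Ccr1.

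The libraries held between 17118964 and 20741399 counts, so 3 counts, taken as the limit of detection per library, amounted to between 0.145 and 0.177 CPM. CPM here is a gene's share of the library, whose size was scaled by TMM. Usp18 itself lay at 9.12, 11 and 11.2 CPM in oil 1, 3 and 4, against 15.1, 28.0 and 19.4 CPM in tamoxifen 1, 2 and 4, a log2 difference of 1.0 ± 0.23 (SE, edgeR quasi-likelihood test with Benjamini-Hochberg adjustment over all genes, adjusted p = 0.0739). The deletion was therefore not visible in the level of this gene, and the groups are called by their labels. Tamoxifen 4 stood apart: on the leading principal component, which took 65.1% of the variance, it lay at -2.99, between the oil libraries at -31.1 to -23.4 and tamoxifen 1 and 2 at 37.3 and 47.5. The sorted cells expressed Kit at 439 to 451 CPM in oil and 447 to 781 CPM in tamoxifen, as the sort required, and Cd34 at 8.43 to 11.7 CPM and 41.8 to 134 CPM (log2 difference 3.27, edgeR adjusted p = 0.0232). A bulk level cannot tell fewer cells of a type from less RNA per cell.

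In the edgeR fit with its low-count filter, 10 members had enough counts to be tested, 4 receptors, 3 ligands and 3 atypical receptors. A further 12 reached 5 or more counts in some library and are given by their counts, 11 stayed below 5 counts in every library, and 29 had no count anywhere. Summed over all members, the level was 74.6, 83.7 and 64.8 CPM in oil 1, 3 and 4, compared with 114, 131 and 85.2 CPM in tamoxifen 1, 2 and 4. The lowest of these tamoxifen sums belonged to tamoxifen 4 and lay close to the highest oil sum. Receptors summed to between 23.2 and 28.4 CPM in oil and between 31.1 and 56.3 CPM in tamoxifen. Ligands summed to between 9.31 and 9.84 CPM in oil and between 14.1 and 25.4 CPM in tamoxifen. Atypical receptors summed to between 32.4 and 45.5 CPM in oil and between 40.1 and 49.5 CPM in tamoxifen, and so were the group with overlapping libraries.

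Per kilobase of merged exons, the order of the 10 tested members in the oil libraries was led by Ackr1 (18.1 ± 3.63 CPM per kb, SD, n = 3), Ccl17 (10.3 ± 1.0), Ccrl2 (4.73 ± 0.583), Ccr2 (3.30 ± 0.281) and Ccl27a (1.03 ± 0.102). The ranges of 1 SD of these leading 5 did not overlap. Cx3cr1 followed at 0.219 ± 0.00516 CPM per kb, next to Ccr9 at 0.198 ± 0.0261, and this pair of neighbours among the tested members did not differ beyond its spread. Ccl25 and Ackr4, at 0.145 ± 0.0435 and 0.124 ± 0.0383 CPM per kb, also overlapped, and Ccr1 was the lowest of these 10 at 0.00662 CPM per kb. In the tamoxifen libraries Ccl17 (22.6 ± 8.30 CPM per kb) and Ackr1 (22 ± 1.24) could not be ordered, and Cx3cr1 stood at 1.6 ± 0.487 CPM per kb beside Ccl27a at 1.35 ± 0.275. The merged exons count every annotated isoform, so a gene with long rare exons, such as Ccr9 at 10260 bases, is given a low level per kilobase.

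**Figure D1:**
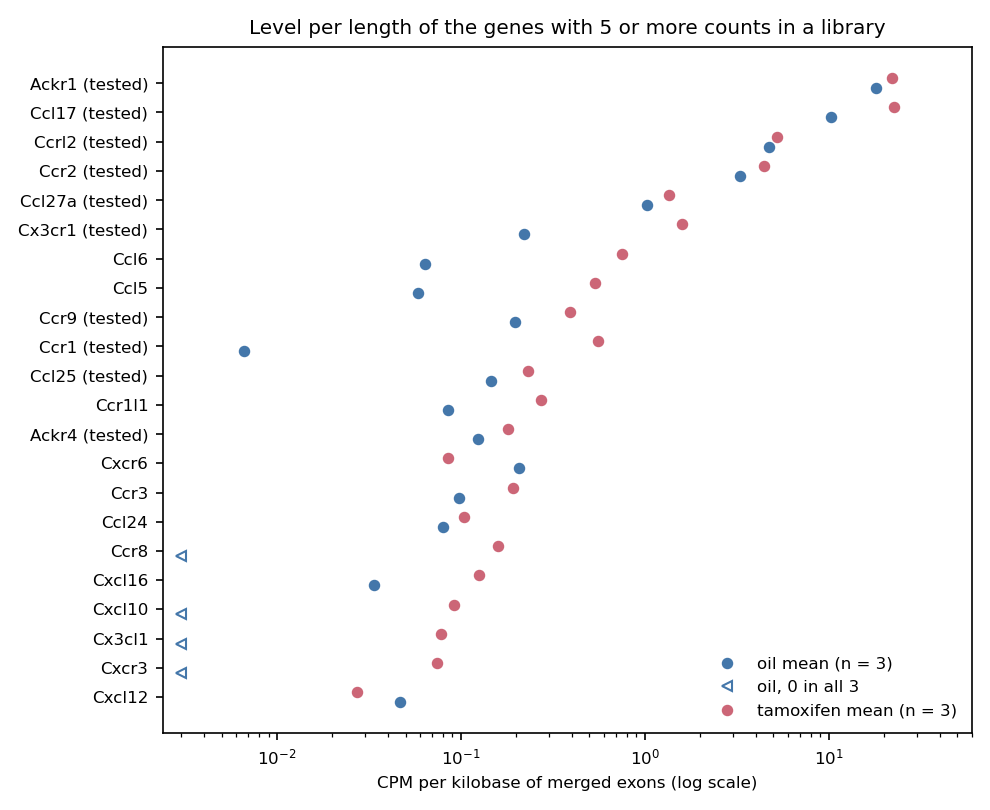
Mean level of the 22 members with 5 or more counts in some library, as CPM per kilobase of merged exons on a log axis, for oil (blue) and tamoxifen (red), n = 3 libraries each, ordered by the mean over all libraries; open triangles mark genes with no count in any oil library. Ackr1 and Ccl17 are at the top, and the receptors Cx3cr1 and Ccr1 are the tested genes with the widest gap between the groups.

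The receptors were the class with called genes. All 4 tested receptors had a positive log2 difference (tamoxifen minus oil), with a median of 1.92 where the median of all tested genes was 0.00012, and 2 of the 4 passed an adjusted p of 0.05, against 1.75% of the 11614 tested genes called higher and 0.267% called lower. Without adjustment, 3 of the 4 had p under 0.05, against 12.6% of all genes higher and 7.99% lower. In 3 of the 4 every tamoxifen library lay above every oil library, against 13.3% of all genes. Ccr1 entered the test only through its tamoxifen counts, so such counts over the tested members describe them and support nothing further. In all 4 the lowest tamoxifen value was that of tamoxifen 4, as it was in 41.2% of all tested genes.

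Cx3cr1 (chr9:119901616-120069879, minus strand) encodes the receptor of fractalkine, a ligand that is tethered to the membrane of endothelial and other cells, and marks patrolling monocytes, tissue macrophages and the progenitors of macrophages and dendritic cells. Its exons share 78 bases with a gene model on the opposite strand, Gm33858. It lay at 1.01, 0.969 and 0.978 CPM in oil 1, 3 and 4, compared with 7.90, 8.97 and 4.75 CPM in tamoxifen 1, 2 and 4. The oil libraries were nearly equal, and the lowest tamoxifen library, tamoxifen 4, was several times above them. The means were 0.987 ± 0.0232 CPM and 7.21 ± 2.20 CPM (SD, n = 3 each), a 7.26-fold difference (log2 2.86 ± 0.31 SE, edgeR adjusted p = 0.0135). With any library other than tamoxifen 4 left out (oil 1, oil 3, oil 4, tamoxifen 1 or tamoxifen 2), edgeR no longer called the gene, with adjusted p between 0.0516 and 0.141 and a log2 difference between 2.68 and 2.88. Without tamoxifen 4 the adjusted p was 3.86e-05.

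Ccr1 (chr9:123962124-123968692, minus strand), a receptor of the inflammatory ligands Ccl3, Ccl5 and Ccl6 that myeloid cells carry, was close to absent in oil. The libraries held 1, 0 and 0 counts in oil 1, 3 and 4, against 21, 48 and 13 counts in tamoxifen 1, 2 and 4. No oil library reached the limit of detection and every tamoxifen library exceeded it. How reads that also match the similar gene Ccr1l1 were counted was not given in the sources used here. The tamoxifen mean of 1.57 ± 1.12 CPM (SD, n = 3) was at least 10-fold higher than 3 counts in each oil library. The fitted log2 value of 6.02 ± 1.02 (SE, edgeR adjusted p = 0.0395) depends on the prior count, since the oil group is almost empty, and is not a size of effect. It too was called only while oil 1, oil 3, oil 4, tamoxifen 1 and tamoxifen 2 were all in the fit, with adjusted p between 0.0804 and 0.202 when any of them was left out and 0.000709 without tamoxifen 4.

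The sequences before the start sites of these genes are shown because Cx3cr1 and Ccr1 were the called members, and Ccl17, described further down, was the ligand with the lowest p. Each is the 250 bases before the RefSeq start (build GRCm38.p6), 5′ to 3′ on the strand of the gene, with motif matches in capitals: Cx3cr1 at chr9:120068297-120068546 (minus strand), Ccr1 at chr9:123968693-123968942 (minus strand) and Ccl17 at chr8:94810203-94810452 (plus strand).
Cx3cr1: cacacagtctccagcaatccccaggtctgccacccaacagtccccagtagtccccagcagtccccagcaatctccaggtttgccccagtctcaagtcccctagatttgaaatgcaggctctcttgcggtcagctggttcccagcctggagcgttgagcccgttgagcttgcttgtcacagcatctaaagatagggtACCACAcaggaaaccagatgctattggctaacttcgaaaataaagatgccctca
Ccr1: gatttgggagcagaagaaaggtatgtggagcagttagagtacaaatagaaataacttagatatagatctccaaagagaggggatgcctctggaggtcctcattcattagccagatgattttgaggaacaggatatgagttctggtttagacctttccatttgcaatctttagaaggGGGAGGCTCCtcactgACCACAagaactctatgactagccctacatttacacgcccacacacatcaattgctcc
Ccl17: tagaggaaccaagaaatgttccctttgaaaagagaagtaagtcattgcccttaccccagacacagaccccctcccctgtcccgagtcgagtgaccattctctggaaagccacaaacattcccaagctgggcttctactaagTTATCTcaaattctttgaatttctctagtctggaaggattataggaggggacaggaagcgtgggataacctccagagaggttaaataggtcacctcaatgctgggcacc

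The capitals in Cx3cr1, and the second stretch of capitals in Ccr1, are the RUNX motif TGTGGT on the complementary strand, beginning 54 and 58 bases before the start. RUNX sites are what the DNA-binding part of AML1-ETO recognises in general. This motif was found in 14.0% of 32817 promoter windows of the same length and in 2 of the 10 tested members with a window. The other stretch in Ccr1, 74 bases before the start, is a match to the NF-kB motif, which 7.25% of all windows and 2 of these 10 members held (Ccr1 and Ccrl2), and it does not overlap the RUNX match. Ccl17 held the GATA motif AGATAA on the complementary strand 109 bases before its start, as did 9.99% of all windows and 4 of the 10 members (Ccl17, Ccl27a, Ccr2 and Ccrl2). The interferon-stimulated response element, ISRE (2.97% of windows), and the PU.1 motif GAGGAAG (10.6%) were not found in the windows of the 10, and AP-1 (TGANTCA, 6.75%) and C/EBP (TTGCNNAA, 9.57%) were found in 1 each, both in Ccl27a. Both strands were searched, and a gene with several windows was counted where any of them matched, while the shares are over all windows. A match describes letters and not a bound site.

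Ccr2 (chr9:124101950-124113557, plus strand), the receptor of Ccl2 through which monocytes leave the marrow, had the highest level per kilobase of the signalling receptors. It lay at 23.0, 23.8 and 20.2 CPM in oil 1, 3 and 4, against 31.8, 37.8 and 20.9 CPM in tamoxifen 1, 2 and 4. Tamoxifen 1 and 2 were above all oil libraries, and tamoxifen 4 lay among them. The means of 22.3 ± 1.90 and 30.2 ± 8.57 CPM differed by 0.43 ± 0.21 on the log2 scale (SE, edgeR adjusted p = 0.275). Without tamoxifen 4 the log2 difference was 0.64 and the adjusted p 0.00323.

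Ccr9 (chr9:123678439-123784330, plus strand), the receptor of Ccl25 that guides lymphocytes to thymus and gut, lay at 2.08, 2.28 and 1.75 CPM in oil 1, 3 and 4, compared with 4.5, 4.72 and 2.87 CPM in tamoxifen 1, 2 and 4. The groups did not overlap, with tamoxifen 4 nearest to oil. The log2 difference of 0.98 ± 0.29 (SE) did not pass the test (edgeR adjusted p = 0.127), and without tamoxifen 4 it was 1.18 with an adjusted p of 0.00771. Exons of Ccr9 share 1932 bases, 18.8% of their length, with an unnamed gene model on the opposite strand, and the strand setting of the counting was not given in the sources used here.

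**Figure D2:**
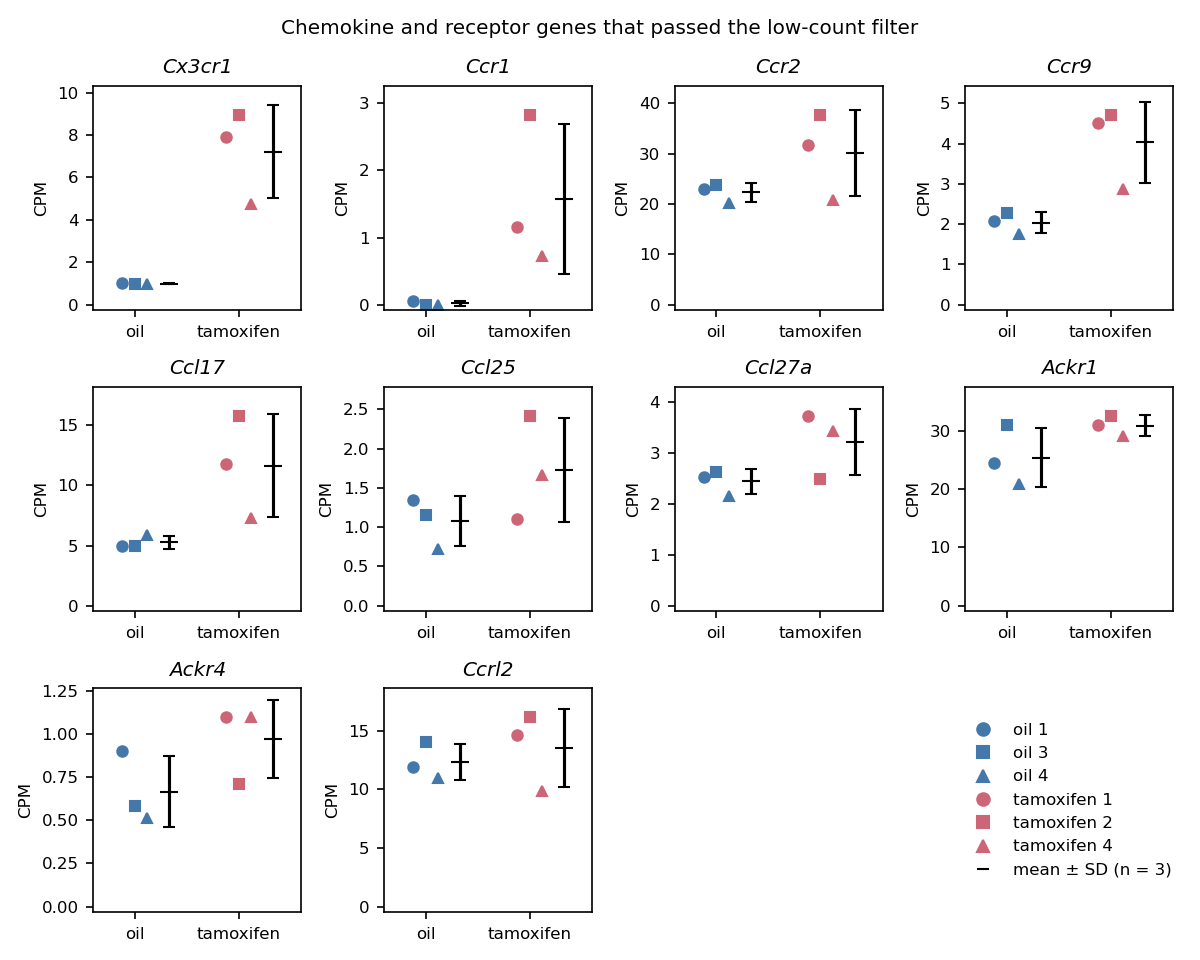
CPM of the 10 tested members in each of the 6 libraries, by group, each panel with its own linear axis; marker shapes tell the libraries apart and black bars are the mean ± SD (n = 3). Cx3cr1, Ccr1, Ccr9 and Ccl17 have groups that do not overlap. Tamoxifen 4 (red triangle) is the lowest red point in the panels of Cx3cr1, Ccr1, Ccr2, Ccr9, Ccl17, Ackr1 and Ccrl2.

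The number of called members depended on tamoxifen 4. With it in, 2 members passed the test, and without it 6 of the 13 testable members were called higher (Ccl17, Ccl6, Ccr1, Ccr2, Ccr9 and Cx3cr1), against 19.2% of all tested genes higher and 17.1% lower in the same fit. With oil 1, oil 3, oil 4, tamoxifen 1 or tamoxifen 2 left out, edgeR called 0 members, and between 4 and 6 had an unadjusted p under 0.05. The share of all genes called in those fits is not given here, so this 0 is not a result about the members. The DESeq2 Wald test on all libraries called 4 members higher (Ccl17, Ccl6, Ccr1 and Cx3cr1) of 20, against 5.73% of all genes higher and 1.70% lower. Ccl6 and Ccr1 entered the fit without tamoxifen 4 and the DESeq2 test mainly through their tamoxifen counts. The numbers of members called there therefore describe them and support nothing further. limma-voom and the fit with a replicate block each called Cx3cr1 and Ccr1, against 0.413% of all genes higher and 0.0517% lower by limma-voom and 1.85% higher and 0.224% lower with the block. By edgeR, DESeq2 and limma-voom on all libraries, 0 members were called lower, and 0 of the 10 tested by edgeR had a negative log2 difference.

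**Figure D3:**
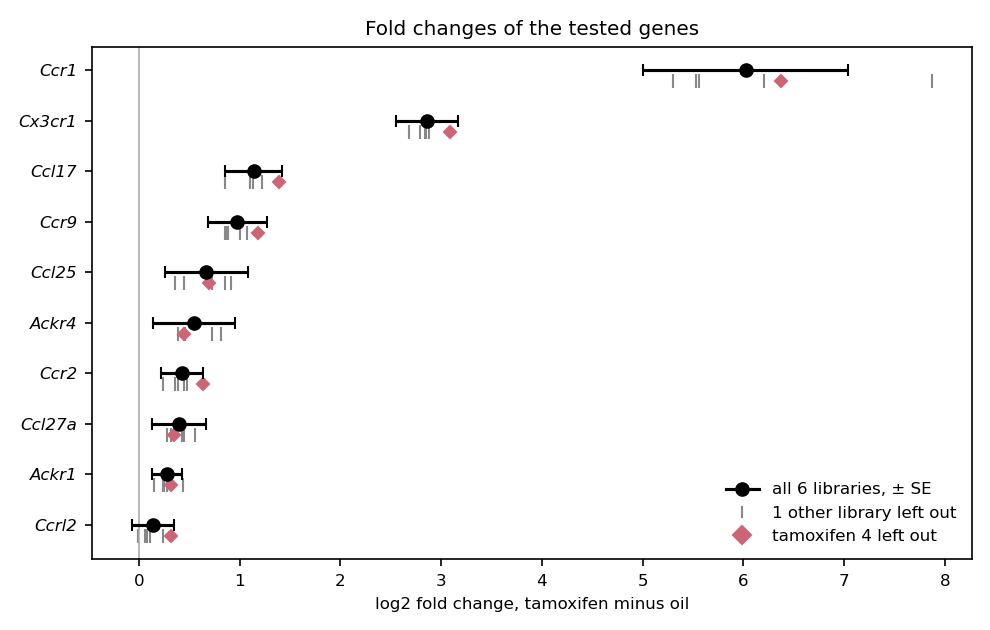
Log2 difference (tamoxifen minus oil) of the 10 tested members with all 6 libraries (black point, bar ± SE), with tamoxifen 4 left out (red diamond) and with each other library left out in turn (grey ticks). All 10 points lie right of 0, and the value of Ccr1 rests on an almost empty oil group.

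The other receptors had too few counts for the low-count filter of the edgeR fit on all libraries. Ccr3, the eotaxin receptor of eosinophils and basophils, held 11, 6 and 1 counts in oil 1, 3 and 4, compared with 9, 16 and 8 in tamoxifen 1, 2 and 4. Ccr1l1, a gene that resembles Ccr1, held 1, 5 and 0 counts in oil, against 5, 3 and 9 in tamoxifen. Ccr1 and Ccr1l1 are similar in sequence, and how reads matching both were counted was not given in the sources used here. The counts of both genes are uncertain to that extent. Ccr8, a receptor of skin-homing and regulatory T cells, held no count in the oil libraries and 2, 3 and 5 in tamoxifen 1, 2 and 4. Cxcr3, the receptor of the interferon-induced ligands Cxcl9, Cxcl10 and Cxcl11, held 7 counts in tamoxifen 1 and 0 in the other 5 libraries. Cxcr6, the receptor of Cxcl16, held 11, 12.5 and 0 counts in oil, against 3, 0 and 6 in tamoxifen, and the groups overlapped.

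The marrow homing receptor Cxcr4 held 2, 0 and 0 counts in oil 1, 3 and 4, against 0, 3 and 0 in tamoxifen 1, 2 and 4. No library exceeded the limit of 3 counts, which amounts to at most 0.177 CPM, so Cxcr4 transcripts were not detectable at this depth in these c-Kit+ cells of the spleen. The neutrophil receptors Cxcr1 and Cxcr2, the lymphoid receptors Ccr4, Ccr7, Ccr10 and Cxcr5 and the dendritic cell receptor Xcr1 likewise stayed below 5 counts in every library, and Ccr6 had no count.

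Ccl17 (chr8:94810453-94812036, plus strand), the ligand of Ccr4 that dendritic cells are known for, had the highest level per kilobase of the ligands. It lay at 4.95, 4.99 and 5.87 CPM in oil 1, 3 and 4, compared with 11.8, 15.8 and 7.29 CPM in tamoxifen 1, 2 and 4. Every tamoxifen library was above every oil library, and tamoxifen 4 was nearest to oil. The means of 5.27 ± 0.516 and 11.6 ± 4.27 CPM differed 2.20-fold (log2 1.14 ± 0.28 SE), which did not pass the edgeR test (adjusted p = 0.0852). It passed by DESeq2 (adjusted p = 0.00456) and, just, by edgeR without a low-count filter (adjusted p = 0.0499). It also passed without tamoxifen 4 (edgeR adjusted p = 0.000549), a fit that called 19.2% of all genes higher and 17.1% lower. It did not pass by limma-voom (adjusted p = 0.142) or with a replicate block (edgeR adjusted p = 0.349). With any other library left out, the edgeR adjusted p lay between 0.224 and 0.309. Its receptor Ccr4 held 3 counts in each of tamoxifen 2 and 4 and 0 in the other libraries.

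The other tested ligands did not pass the test. Ccl27a (chr4:41769467-41774247, minus strand), a skin chemokine, lay at 2.53, 2.62 and 2.16 CPM in oil 1, 3 and 4, against 3.73, 2.48 and 3.43 CPM in tamoxifen 1, 2 and 4 (log2 difference 0.40, edgeR adjusted p = 0.404). Ccl25 (chr8:4325210-4360020, plus strand), the ligand of Ccr9 made by thymus and gut epithelium, lay at 1.35, 1.16 and 0.720 CPM in oil, compared with 1.10, 2.42 and 1.66 CPM in tamoxifen (log2 difference 0.67, edgeR adjusted p = 0.368). The groups overlapped in both. Exons of Ccl25 share 204 bases with Elavl1 on the opposite strand, which lay at 153 CPM in oil, and those of Ccl27a share 8 bases with Il11ra1, at 23.3 CPM, so reads of these partners could have been counted where the exons meet if the counting ignored strand, which the sources used here do not give. Over the 3 tested ligands the median log2 difference was 0.67, and 0 passed the edgeR test. Without adjustment 1 had p under 0.05, against 12.6% of all genes higher and 7.99% lower.

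Among the ligands with too few counts for the low-count filter, Ccl6, a mouse ligand of Ccr1 made by myeloid cells, held 0, 6 and 1 counts in oil 1, 3 and 4, compared with 27.5, 34 and 9 in tamoxifen 1, 2 and 4. The groups did not overlap. The DESeq2 test, which kept this gene, gave a log2 difference of 3.52 (adjusted p = 0.0100), and edgeR without a low-count filter gave an adjusted p of 0.0688. Ccl5, a ligand of Ccr1 and Ccr3, held 3, 0 and 0 counts in oil, compared with 7.5, 16.5 and 3 in tamoxifen (DESeq2 adjusted p = 0.167). Here tamoxifen 4 held no more counts than oil 1.

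The interferon-induced ligand Cxcl10 held no count in oil and 1, 3 and 7 counts in tamoxifen 1, 2 and 4, and its companions Cxcl9 and Cxcl11 held none in any library. Cx3cl1, fractalkine, the ligand of Cx3cr1, held 7 and 9 counts in tamoxifen 1 and 2 and none elsewhere. Cxcl16 held 2.5, 3.5 and 0 counts in oil, against 8.5, 7.5 and 4 in tamoxifen. Cxcl12, the stromal ligand of Cxcr4, held 7, 9 and 6.5 counts in oil, compared with 2, 2 and 8 in tamoxifen, and the eosinophil attractant Ccl24 held 2, 1.5 and 2 in oil and 2, 5 and 0 in tamoxifen. Each of these 5 stayed below 10 counts in every library.

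The ligands without any count included the monocyte attractants Ccl2, Ccl7, Ccl8 and Ccl12, the macrophage inflammatory proteins Ccl3, Ccl4 and Ccl9, and the neutrophil attractants Cxcl1, Cxcl2, Cxcl3, Cxcl5 and Cxcl15. They also included the lymphoid and tissue ligands Ccl1, Ccl11, Ccl19, Ccl20, Ccl21b, Ccl21c, Ccl26, Ccl27b, Ccl28, Cxcl13, Cxcl14 and Xcl1. Ccl21a, Ccl22 and Cxcl17 stayed below 5 counts. These genes lie mostly in the family's clusters: 9 of the 12 ligand genes on chromosome 11 and 9 of the 11 on chromosome 5 had no count, and none on either chromosome passed the low-count filter of the edgeR fit on all libraries. A count of 0 in a library allows up to 3 counts, and counting error is all that this limit covers. Ccl17 on chromosome 8 lies beside Ccl22, which held 1 count in oil 3 and none elsewhere. Cx3cl1, with 7 and 9 counts in tamoxifen 1 and 2 and none elsewhere, is also beside it.

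None of the 3 tested atypical receptors passed the edgeR test, and 0 had an unadjusted p under 0.05. Ackr1 (chr1:173331886-173333750, minus strand), the Duffy antigen, which binds many inflammatory chemokines on red cells, their precursors and venules, lay at 24.5, 30.9 and 20.8 CPM in oil 1, 3 and 4, against 30.9, 32.6 and 29.1 CPM in tamoxifen 1, 2 and 4. The groups overlapped at oil 3, and the log2 difference was 0.28 ± 0.15 (SE, edgeR adjusted p = 0.326). Markers of erythroid cells, summed over 5 genes (Hbb-bs, Hba-a1, Hba-a2, Klf1 and Tfrc), ranged from 3670 to 5700 CPM in oil and from 2970 to 7020 CPM in tamoxifen. The sum is mostly haemoglobin, whose 3 genes had log2 differences of 0.33 to 0.37, while Klf1 and Tfrc, at -0.29 and -0.31, had every tamoxifen library below every oil library. edgeR called 0 of these 5, and 2 had an unadjusted p under 0.05, against 12.6% of all genes higher and 7.99% lower. Their part in the level of Ackr1 was not tested. Exons of Ackr1 share 25.7% of their length with Cadm3 on the same strand, which lay at 6.88 CPM in oil and 12.2 CPM in tamoxifen, so the level of Ackr1 is uncertain to that extent.

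Ccrl2 (chr9:111054486-111057519, minus strand), which presents chemerin on the cell surface, lay at 11.9, 14.0 and 11 CPM in oil 1, 3 and 4, compared with 14.6, 16.2 and 9.83 CPM in tamoxifen 1, 2 and 4. Tamoxifen 4 was the lowest of all 6 libraries. The log2 difference was 0.14 ± 0.21 (SE, edgeR adjusted p = 0.712), and -0.01 without tamoxifen 2. Ackr4 (chr9:104084157-104126933, minus strand), the scavenger of Ccl19, Ccl21 and Ccl25, had means of 0.666 ± 0.206 CPM in oil and 0.970 ± 0.227 CPM in tamoxifen (SD, n = 3, log2 difference 0.55, edgeR adjusted p = 0.445), and 479 bases of its exons lie opposite Acad11, which stood at 36.3 CPM in oil. Ackr2 and Ackr3 had no count in any library.

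The tested receptors shared their chromosome. All 4, and 2 of the 3 tested atypical receptors, lie on chromosome 9, which holds 11 of the 18 receptor genes and 3 of the 5 atypical ones. A receptor cluster from Ccr9 to Ccr2 (chr9:123678439-124113557, 435119 bases) contains 7 members among 9 protein-coding genes. Ccr9, Ccr1 and Ccr2 were tested there and Ccr1 was called, while Cxcr6, Xcr1, Ccr1l1 and Ccr3 had too few counts. The other genes inside the cluster, Lztfl1 and Fyco1, had log2 differences of 0.20 and 0.18 (edgeR adjusted p = 0.514 and 0.543). Before it, Lars2, Limd1 and Sacm1l stood at -0.28, -0.07 and -0.23, with Tmem158 farther out at 1.83 (adjusted p = 0.114). Farther along, 2010315B03Rik and Ppp2r3d stood at 0.55 and 0.75 (adjusted p = 0.0965 and 0.191). Cx3cr1 lies outside the cluster on the same chromosome, beside Ccr8.

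**Figure D4:**
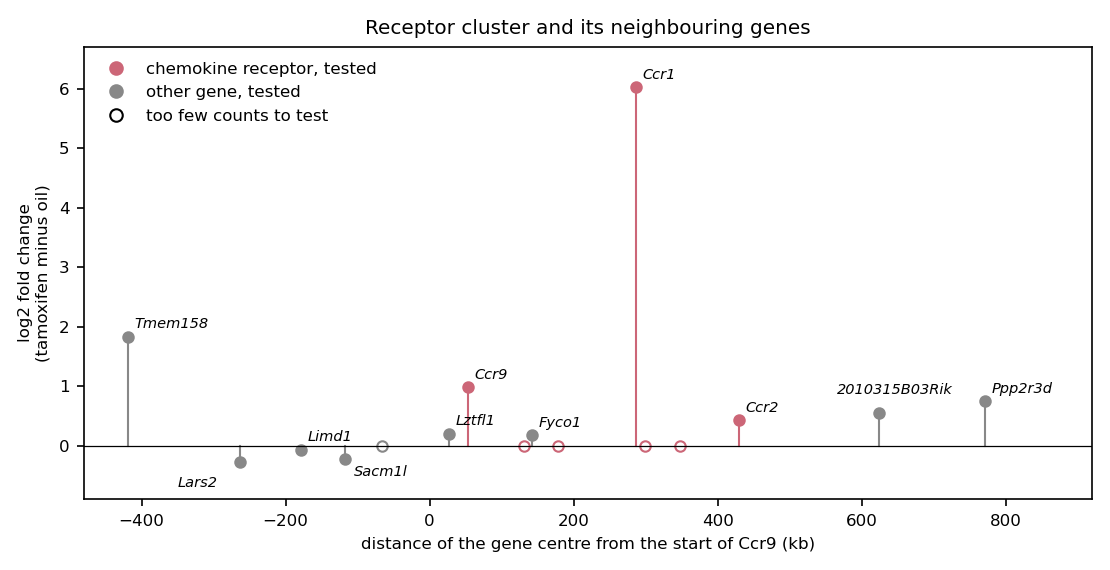
Log2 difference (tamoxifen minus oil) of the genes in and around the chromosome 9 receptor cluster, against the distance of the gene's centre from the start of Ccr9 in kilobases; red marks chemokine receptors, grey other genes, and open circles, drawn at 0, genes with too few counts for a value. Ccr1 stands above the rest on a fitted value that is not a size of effect, and Lztfl1 and Fyco1 between the receptors are near 0.

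Among the genes that carry the receptor signal, Rgs1 alone passed the edgeR test. Of 39 G protein subunits, kinases, arrestins, regulators of G protein signalling and migration effectors, 33 were tested, 24 had a positive log2 difference, and the median was 0.19. edgeR called 1 higher and 0 lower, against 1.75% and 0.267% of all tested genes. Without adjustment 11 had p under 0.05, against 12.6% of all genes higher and 7.99% lower. DESeq2 called 4 higher and 1 lower of 35, against 5.73% and 1.70% of all genes. The called gene was Rgs1, which speeds the shut-off of Gi signals from chemokine receptors. It lay at 7.32, 9.69 and 10.9 CPM in oil 1, 3 and 4, against 57.7, 77.0 and 23.1 CPM in tamoxifen 1, 2 and 4, a 5.64-fold difference (log2 2.50 ± 0.40 SE, edgeR adjusted p = 0.0342). Every tamoxifen library was above every oil library. Groups did not overlap for 6 of the 33 genes with tamoxifen higher and 3 with tamoxifen lower, against 13.3% and 11.8% of all tested genes. Without tamoxifen 4, edgeR called 17 higher and 2 lower, against 19.2% and 17.1% of all genes in that fit. With oil 1, oil 3, oil 4, tamoxifen 1 or tamoxifen 2 left out it called 0, in fits whose share of all genes is not given here.

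Of 26 regulators of chemokine transcription and mRNA decay (NF-kB, STAT, IRF, C/EBP and AP-1 members and mRNA-decay factors), 25 were tested, 24 had a positive log2 difference, and the median was 0.38. The 1 called higher was Cebpb, a C/EBP factor of myeloid cells, at 8.63 ± 1.11 CPM in oil and 14.8 ± 0.911 CPM in tamoxifen (SD, n = 3, log2 0.78 ± 0.16 SE, edgeR adjusted p = 0.0493). None was called lower by edgeR or DESeq2, 11 of the 25 had an unadjusted p under 0.05 (12.6% of all genes higher and 7.99% lower), and 9 had all tamoxifen libraries above all oil libraries (13.3% of all genes). DESeq2 called 5 higher, against 5.73% of all genes, and the 1 called higher by edgeR stands against 1.75%. Without tamoxifen 4, edgeR called 17 higher, against 19.2% of all genes in that fit. With oil 1, oil 3, oil 4, tamoxifen 1 or tamoxifen 2 left out it called 0, in fits whose share of all genes is not given here.

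Of 12 chemokine-like genes that the symbol rule does not reach, 7 were tested, 4 had a positive log2 difference, and the median was 0.02. edgeR called 1 higher and 0 lower, against 1.75% and 0.267% of all tested genes. Without adjustment 3 had p under 0.05, against 12.6% of all genes higher and 7.99% lower. DESeq2 called 2 higher of 8, against 5.73% of all genes. Cmtm7, a membrane protein of the chemokine-like factor family, rose from 34.4, 36.3 and 43.9 CPM in oil 1, 3 and 4 to 85.2, 148 and 78.7 CPM in tamoxifen 1, 2 and 4 (log2 1.44 ± 0.24 SE, edgeR adjusted p = 0.0381), and the groups did not overlap. The macrophage migration inhibitory factor Mif differed by 0.02 (edgeR adjusted p = 0.952). Dpp4, the peptidase that clips the ends of Cxcl12 and other chemokines, differed by 3.19 (edgeR adjusted p = 0.0800). The platelet chemokine Pf4 held 9 counts in tamoxifen 2 and none elsewhere. The call of Cmtm7 was lost with oil 1, oil 3, oil 4 or tamoxifen 1 left out, and edgeR called 3 of the 7 higher without tamoxifen 4, against 19.2% of all genes in that fit.

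Apart from the erythroid and mast cell lists, the marker lists of other cells summed to at most 56.4 CPM in a library. The largest of these sums came from single genes of the T and NK cell and megakaryocyte lists. The macrophage and eosinophil sums, over several genes each, were above the levels of Cx3cr1 and Ccr1 in every library. Of 11 macrophage markers, 8 were tested and 6 had a positive log2 difference. edgeR called 0 of them, against 1.75% of all genes higher and 0.267% lower. Without adjustment 2 had p under 0.05, against 12.6% of all genes higher and 7.99% lower. The 11 summed to 5.30 to 9.79 CPM in oil and 8.18 to 16.4 CPM in tamoxifen. The defining receptor Csf1r lay at 0.388 to 1.35 CPM in oil and 0.221 to 2.24 CPM in tamoxifen, and none of the 11 was at 0 throughout. Vcam1 and Cd68, 2 of the 8 tested, had every tamoxifen library above every oil library, against 13.3% of all tested genes. The oil and tamoxifen means were 0.832 and 3.05 CPM for Vcam1 (log2 difference 1.86, edgeR adjusted p = 0.0696). For Cd68 they were 1.27 and 2.48 CPM (0.97, edgeR adjusted p = 0.189). Of the 7 dendritic cell markers, Flt3, Clec9a, Siglech and Cd209a were at 0 in every library. The 7 summed to 3.65 to 5.85 CPM in oil and 2.91 to 3.31 CPM in tamoxifen, mostly from Zbtb46. Zbtb46 had every tamoxifen library below every oil library (log2 difference -0.58, edgeR adjusted p = 0.243). The 8 neutrophil markers summed to at most 1.18 CPM in a library, with Ly6g and S100a8 at 0, and the endothelial and stromal markers to at most 0.675 CPM, with Cdh5 at 0.

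The 8 mast cell and basophil markers were all tested. They summed to 1830 to 1940 CPM in oil and 2440 to 5380 CPM in tamoxifen, and 7 of the 8 had a positive log2 difference (median 2.08). By edgeR 2 rose, against 1.75% of all tested genes. These were the IgE receptor chain Fcer1a (log2 2.12, edgeR adjusted p = 0.0381) and the mast cell tryptase Tpsb2 (log2 4.16, adjusted p = 0.0402). None of the 8 was at 0 in every library. Of the T and NK cell markers, Nkg7 made up nearly all of the sum of 1.13 to 2.57 CPM in oil and 7.62 to 56.4 CPM in tamoxifen (log2 4.03, edgeR adjusted p = 0.0410), while Cd3e, Cd8a, Ncr1, Klrb1c, Gzma and Prf1 were at 0. The megakaryocyte markers summed to 4.95 to 6.17 CPM in oil and 12.3 to 52.1 CPM in tamoxifen, nearly all from Itga2b (log2 2.51, edgeR adjusted p = 0.0435), which progenitors also express. B cell markers reached at most 0.878 CPM in a library, with Ms4a1 and Pax5 at 0, and eosinophil markers 7.27 to 10.5 CPM in oil and 7.62 to 20 CPM in tamoxifen, with Epx and Prg2 at 0. The mast cell sum and the levels of Nkg7, Itga2b, Vcam1 and Cd68 ran in the same direction as Cx3cr1, Ccr1 and Ccl17. In each of them tamoxifen 4 was the tamoxifen library nearest to oil. Single mast cell genes did not all share this. For Tpsb2, Mcpt8 and Prss34 the lowest tamoxifen library was tamoxifen 1 (Tpsb2 at 1.98 CPM, against 2.43 CPM in tamoxifen 4). Ms4a2 (log2 -0.04) and the macrophage markers C1qb (-0.17) and C1qc (-0.12) had negative log2 differences. The part of these markers in the levels of Cx3cr1, Ccr1 and Ccl17 was not tested.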

How the data were processed

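RNA of 6 samples, 3 oil and 3 tamoxifen, was sequenced from Trizol extracts on an Illumina NovaSeq. A table of estimated counts per symbol was deposited by the authors, made per the labels with STAR and DESeq2 on mm10, which were not scaled between libraries. From 25.9% to 27.3% of the entries per library had a fraction, and all were rounded to whole numbers. The counting program, strand setting and annotation were not given in the sources used here. Library preparation is labelled as Nextera DNA Flex. Libraries are named by the numbers in the table (oil 1, 3 and 4, tamoxifen 1, 2 and 4). The sample titles number them oil 1, 2 and 4 and tamoxifen 1, 3 and 4, so oil 3 and tamoxifen 2 are known by group alone. No pair of replicates agreed within sampling noise (chi-square per degree of freedom at least 7.14).

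Counts were tested in R 4.3.3 with edgeR 4.0.16 (filterByExpr, TMM, quasi-likelihood F test, group as the only term, 4 residual degrees of freedom). P-values were adjusted by Benjamini-Hochberg over all 11614 genes tested, with a threshold of 0.05, and measure the spread between these samples. CPM is the count over the TMM-scaled size of the library, summed over tested genes. Folds against a group at 3 counts or fewer per library are bounds against 3 counts. Alternatives were DESeq2 1.42.0, limma-voom (limma 3.58.1), other normalizations, filters and rounding, a replicate block and each library left out. Scripts were tested on simulated data.

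The members and lists were chosen with earlier results of these data known. The rule on symbols took 63 genes, of which 1 is not reported here, nor is 1 marker gene. Named genes are the other tested members, untested members with 5 or more counts in a library, and called genes of the other lists. Other genes, including the cluster's neighbours, Cxcr4, Ccr4, Mif, Dpp4 and Pf4, were named after their values were seen. Positions are from GENCODE M21 (GRCm38, the build called mm10), where 61 of the 62 symbols matched. Sequences are from RefSeq, where 47 members, the 10 tested ones included, had a window. In the table, 26 symbols were dates and were not named.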

Additional observations from a re-analysis of the deposited data

How the results depend on the processing

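The count of members called higher, 2 with all libraries, was 1 with a filter at a mean of 50 counts, 4 by DESeq2 and between 0 and 6 with 1 library left out. It was 3 without a filter and 2 in the other fits. For signalling genes called higher, 1 in the reported fit, the counts were 3 without a filter, 2 with upper-quartile normalization, 4 by DESeq2, 0 by limma-voom and between 0 and 17 with 1 library left out, and for those called lower, 0 in the reported fit, 1 by DESeq2 and between 0 and 2. For the regulators, 1 in the reported fit, they were 2 without a filter, 0 at a mean of 50 counts, 5 by DESeq2, 0 by limma-voom and between 0 and 17, and for the chemokine-like genes, also 1, they were 2 without a filter, 2 by DESeq2, 0 by limma-voom and between 0 and 3. Leaving out a library also leaves fewer samples, and the cause of the rise without tamoxifen 4 was not tested. The log2 difference of Ccrl2 reversed to -0.01 without tamoxifen 2, in a range up to 0.32 without tamoxifen 4.

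With a replicate block, in which number 1 and number 4 occur in both groups, edgeR called 2 members (Cx3cr1, adjusted p = 0.00113, and Ccr1, adjusted p = 0.0237) and 2 signalling genes. The correlation of deviations from the group means was -0.13 for number 1 and 0.062 for number 4. Tamoxifen 4 stood apart from its group and shifts these deviations, so the correlations can neither show nor exclude a pairing. Whether equal numbers mark paired samples is therefore unknown. The block leaves 1 residual degree of freedom. Depth limited how many members had a test: 10 in the reported fit, 20 by DESeq2 and 33 without a filter.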
